A study of Homo sapiens with 7 samples.

Results

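Protein-coding promoters of Kasumi-1 leukemia cells were sorted by 2 chromatin immunoprecipitation sequencing (ChIP-seq) peak lists, those of the co-repressor N-CoR and of histone H3 trimethylated at lysine 4 (H3K4me3). A transcription start carried N-CoR or H3K4me3 when the summit of a peak lay within 1 kb of it in the human genome build GRCh37 (hg19). Of 19802 protein-coding genes with 78641 annotated starts, 12360 carried at least 1 of them. N-CoR and H3K4me3 shared a start in 2139 genes (10.8% of all genes), a count that ran from 707 to 2411 under other settings. N-CoR without H3K4me3 at any start was found in 133 genes (0.672%), a count that ran from 59 to 440 under other settings, and H3K4me3 without N-CoR in 9935 genes (50.2%). In 153 genes (0.773%) N-CoR and H3K4me3 lay at different starts only, and the other 7442 genes carried neither.

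Kasumi-1 is an established line of human myeloblasts from peripheral blood with the t(8;21) translocation, and it was grown without treatment to passages 25 to 30. The study also profiled AML1, the fusion protein AML1-ETO and the co-activator p300, whose lists are used here, and H3K27me3 and an input control, which are not used here. The 2 biological replicates of each antibody were pooled before peaks were called, so there was 1 list per antibody, with positions only. The lists hold no spread between replicates, peak height or read count, no test between libraries was made, and each 95% interval below is an exact Clopper-Pearson interval that covers counting error over genes or summits only.

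N-CoR is a large scaffold protein that binds unliganded nuclear receptors and other DNA-bound factors and brings the histone deacetylase HDAC3 to chromatin. H3K4me3 is laid down at the starts of active or poised genes by the SET1 and MLL methyltransferases, mostly on the nucleosomes that flank the nucleosome-poor start itself. AML1-ETO keeps the DNA-binding Runt domain of AML1 and carries the ETO part, through which it contacts N-CoR.

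The reference sequence of 100 bp N-CoR windows is printed for 8 promoters, 4 with H3K4me3 and 4 without, taken by low peak number among windows that overlap no annotated exon of any gene, and for CTSG, which was chosen after its values had been seen. They are examples from the low peak numbers, and the shares of all N-CoR windows that hold each motif are given further on. Capitals mark AGGAAG, the core of many ETS family sites, and TGTGGT, the Runx core, on either strand, and each window is written 5′ to 3′ on the strand of its gene. With H3K4me3 at the same start, the windows were those of CYB561 (chr17:61524485-61524584, minus strand, upstream of the gene), CGREF1 (chr2:27342023-27342122, minus strand, upstream), RNF149 (chr2:101925374-101925473, minus strand, upstream) and VAV1 (chr19:6773450-6773549, plus strand, intronic).
CYB561: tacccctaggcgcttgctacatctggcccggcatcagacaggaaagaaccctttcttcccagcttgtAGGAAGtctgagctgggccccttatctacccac
CGREF1: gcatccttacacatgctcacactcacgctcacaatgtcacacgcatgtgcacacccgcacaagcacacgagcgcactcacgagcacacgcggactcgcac
RNF149: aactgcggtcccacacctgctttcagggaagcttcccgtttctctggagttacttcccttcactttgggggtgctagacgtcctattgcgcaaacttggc
VAV1: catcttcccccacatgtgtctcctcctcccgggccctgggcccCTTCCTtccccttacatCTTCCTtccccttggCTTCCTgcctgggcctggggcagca

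Without H3K4me3 at the promoter, the windows were those of DPEP1 (chr16:89683177-89683276, plus strand, intronic), BPI (chr20:36932440-36932539, plus strand, upstream), ADGB (chr6:147092283-147092382, plus strand, intronic), MPO (chr17:56358357-56358456, minus strand, upstream) and CTSG (chr14:25045573-25045672, minus strand, upstream). The DPEP1 window was a tandem repeat of the ETS core. The BPI window held a pair of Runx cores beside an ETS core, and the ADGB window held 1 of each.
DPEP1: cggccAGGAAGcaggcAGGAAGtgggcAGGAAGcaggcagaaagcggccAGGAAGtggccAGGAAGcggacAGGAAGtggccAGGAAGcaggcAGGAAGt
BPI: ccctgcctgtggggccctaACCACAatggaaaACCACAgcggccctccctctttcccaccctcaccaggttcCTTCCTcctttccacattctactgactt
ADGB: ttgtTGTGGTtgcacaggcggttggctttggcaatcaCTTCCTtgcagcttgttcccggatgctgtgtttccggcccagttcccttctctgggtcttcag
MPO: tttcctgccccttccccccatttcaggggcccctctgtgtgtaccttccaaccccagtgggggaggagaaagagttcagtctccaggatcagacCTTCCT
CTSG: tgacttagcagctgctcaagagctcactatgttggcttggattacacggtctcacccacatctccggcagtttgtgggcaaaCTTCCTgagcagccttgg

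Most genes with N-CoR at a promoter had H3K4me3 there too. Of the 2425 genes with N-CoR (12.2% of all genes), 88.2% (86.9 to 89.5%) had H3K4me3 at the same start and 94.5% had it at some start of the gene. A further 6.31% (5.37 to 7.35%) had the 2 only at different starts, and 5.48% (4.61 to 6.47%) had no H3K4me3. In the other direction the share was small. Of the 12227 genes with H3K4me3 (61.7% of all genes), 17.5% (16.8 to 18.2%) had N-CoR at the same start. Among the genes without H3K4me3, N-CoR was found at 1.76% (1.47 to 2.08%).

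The same held start by start. H3K4me3 was present at 90.8% of the starts with N-CoR and at 49.9% of the starts without it. N-CoR was present at 17.1% of the starts with H3K4me3 and at 2.04% of those without. Genes differ in how many starts they have, and a gene with many starts has more chances to carry a summit. The median number of starts was 4 in genes with N-CoR and H3K4me3 together, 4 in genes with H3K4me3 alone, 2 in genes with N-CoR alone and 7 in genes with the 2 at different starts. When only the canonical start of each gene was counted, 1872 of 2000 genes with N-CoR had H3K4me3, 93.6%.

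Few genes lay just inside or outside the limit of 1 kb, although a shorter one changed the classes. The nearest N-CoR summit lay 900 to 1000 bp from a start in 39 genes and 1000 to 1100 bp away in 49. For H3K4me3 these numbers were 55 and 31. With a limit of 500 bp, 249 genes had N-CoR without H3K4me3, and 78.2% of the genes with N-CoR had H3K4me3 at the same start. Myeloid genes just outside were KIT, the stem cell factor receptor, with its nearest H3K4me3 summit at 1086 bp, and TYROBP, an adapter of innate immune receptors, with an N-CoR summit at -1183 bp. Both were counted as carrying neither.

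N-CoR summits lay mostly upstream of the transcription start and H3K4me3 summits mostly downstream. Offsets are given to the nearest protein-coding start along the direction of transcription, with negative values upstream. The N-CoR list placed 2385 of 10003 nuclear summits, 23.8% (23.0 to 24.7%), within 1 kb of a start. Their median offset was -55 bp (quartiles -141 and 5 bp), and 72.6% (70.7 to 74.4%) lay upstream. The H3K4me3 list placed 15489 of 19631 summits, 78.9% (78.3 to 79.5%), at a start. Their median offset was 168 bp (quartiles -115 and 286 bp), and 30.0% (29.3 to 30.8%) lay upstream. Of all bases within 1 kb of a start, 48.7% are upstream of the nearest one.

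**Figure D1:**
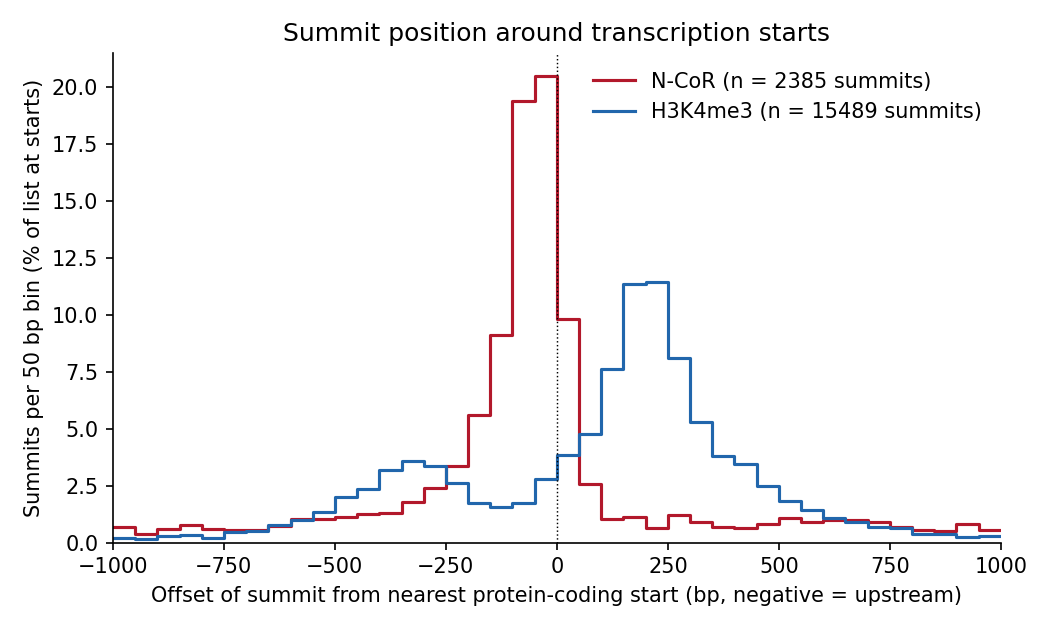
Share of summits (y axis, percent of the summits at starts, per 50 bp bin) by offset from the nearest protein-coding start (x axis, bp), for N-CoR (red, 2385 summits) and H3K4me3 (blue, 15489 summits). N-CoR has 1 peak in the 100 bp upstream of the start, where H3K4me3 is low, and H3K4me3 has a main peak at 150 to 250 bp downstream and a smaller one near 300 bp upstream.

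N-CoR summits were concentrated close to the start, as were those of AML1, AML1-ETO and p300. The 2 fullest N-CoR 50 bp bins, from -100 to 0 bp, held 19.4 and 20.5% of the summits, and 52.2% lay within 100 bp of the start on either side. For AML1, 53.7% lay within 100 bp and 72.0% upstream, and for p300, 62.0% within 100 bp and 53.5% upstream. AML1-ETO had 47.4% within 100 bp and 61.9% upstream. For H3K4me3, 13.3% lay within 100 bp, close to the 13.9% of all bases. Between 100 and 400 bp downstream lay 47.7% of H3K4me3 summits and 5.62% of N-CoR summits, against 16.2% of all bases. In the 150 bp upstream of the start the order was turned, with 49.3% of N-CoR summits and 6.17% of H3K4me3 summits, against 9.78% of all bases. H3K4me3 covers broad stretches, and its summit marks only the highest point of each. The nearest start was used, which shortens the offset wherever several starts are close by.

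N-CoR summits lay closer to the nearest annotated start where H3K4me3 was present. At starts with H3K4me3, 1967 N-CoR summits had a median distance of 84 bp from the start, 74.5% lay upstream and 55.7% (53.5 to 57.9%) lay within 100 bp. At starts without H3K4me3, 418 summits had a median distance of 171 bp, 63.6% (58.8 to 68.3%) lay upstream and 35.6% (31.1 to 40.4%) lay within 100 bp. Starts with both numbered 7255, and starts with N-CoR and no H3K4me3 numbered 736. More starts close together shorten the distance to the nearest one, and the part of this in the contrast was not tested. The median offset of H3K4me3 summits was 193 bp at starts with N-CoR (2384 summits) and 163 bp at the others (13105 summits), and 26.8% (25.03 to 28.63%) and 30.6% (29.8 to 31.4%) lay upstream.

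Where the 2 shared a start, their summits rarely coincided. From each of the 1967 N-CoR summits to the nearest H3K4me3 summit at the same start, the median distance was 365 bp (quartiles 277 and 510 bp). The 2 summits were within 100 bp of each other in 2.29% (1.67 to 3.05%) of cases, between 150 and 500 bp apart in 69.9% (67.8 to 71.9%), and more than 500 bp apart in 26.0% (24.1 to 28.0%). The nearest H3K4me3 summit was downstream of N-CoR in 69.0% (66.9 to 71.0%). At the 496 N-CoR summits with more than 1 H3K4me3 summit at their start, N-CoR lay between H3K4me3 summits in 374, 75.4% (71.4 to 79.1%).

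**Figure D2:**
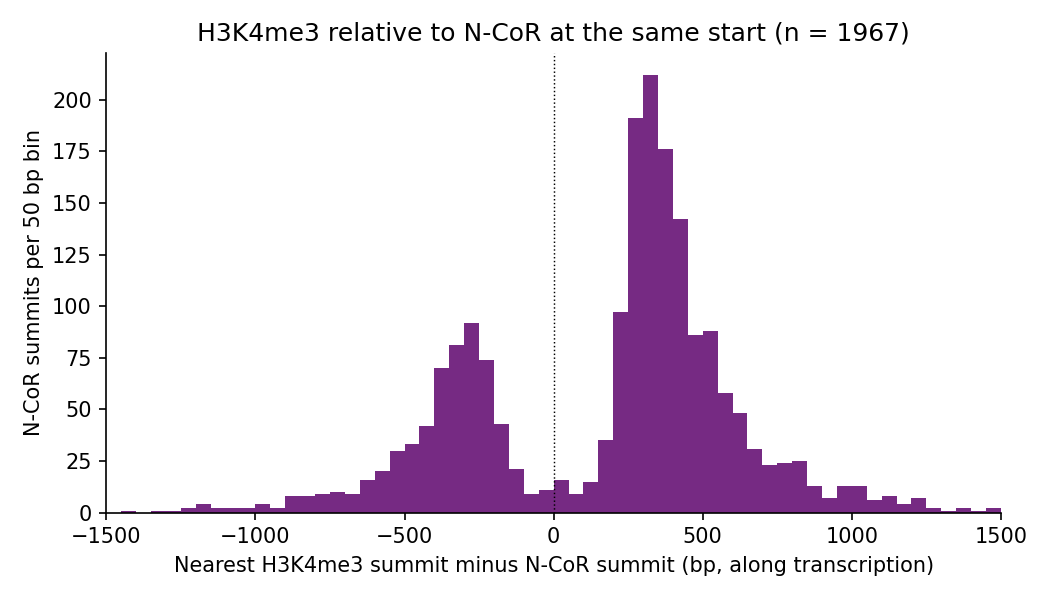
Number of N-CoR summits (y axis, per 50 bp bin) by the signed distance from the N-CoR summit to the nearest H3K4me3 summit at the same start (x axis, bp, positive in the direction of transcription), over 1967 N-CoR summits, of which 5 lie beyond the plotted range. The distances form a larger group downstream and a smaller one upstream, with few within 100 bp of 0.

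The closest pairs were at ARHGAP21, a GTPase activating protein, 4 bp apart at 205 and 201 bp downstream of the start, at the zinc finger gene ZBTB44, 7 bp apart, and at the lipase gene ABHD2, 9 bp apart. The most distant pairs were at CCND3, which encodes the G1 cyclin D3, 1912 bp apart, at ZMYND8, a reader of acetylated histones, 1708 bp apart, and at YES1, a Src family kinase, 1667 bp apart. At CCND3 the N-CoR summit lay 935 bp downstream of the start and the H3K4me3 summit was at -977 bp.

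The genes with N-CoR and H3K4me3 that had the lowest N-CoR peak numbers were ST3GAL1, a sialyltransferase, CYB561, an electron carrier of secretory vesicle membranes, HHEX, a hematopoietic homeobox factor, CGREF1, EXOSC4, a subunit of the RNA exosome, the ubiquitin ligase RNF149, SDE2, the class IIa histone deacetylase HDAC5, VAV1, a guanine nucleotide exchange factor of blood cells, and TRIB1, a pseudokinase that directs the degradation of C/EBP alpha. RNF149 had the usual arrangement, with 1 start, N-CoR at -261 bp and H3K4me3 at 227 bp. SDE2 had N-CoR at -456 bp and H3K4me3 at 214 bp. EXOSC4 had them at -105 and 264 bp, and TRIB1 at -105 and 931 bp.

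A low peak number did not always belong to the start with H3K4me3. For ST3GAL1, HHEX and HDAC5 the lowest-numbered N-CoR peak lay at a start without H3K4me3, and another N-CoR peak lay at a start that had it. HHEX carried its lowest-numbered summit at -35 bp from an internal start, and its other N-CoR summit lay 981 bp downstream of the canonical start, which had H3K4me3 at 339 bp. HDAC5 had N-CoR at -321 bp and H3K4me3 at -170 bp from the start that carried both. VAV1 had N-CoR summits at -37 bp from its canonical start, next to H3K4me3 at 291 bp, and at 761 bp from another start.

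A few genes carried many N-CoR summits when those near every annotated start of the gene were counted. SEPTIN9, a cytoskeletal GTPase, had 5, and SH3BP2, an adapter of immune receptor signaling, ITPRIP and MEF2C, a transcription factor of muscle and blood, had 4 each. ST3GAL1 was among the next, with 3. More than 1 N-CoR summit was found in 220 of the 2139 genes with N-CoR and H3K4me3, 10.3%, and more than 1 H3K4me3 summit in 846, 39.6%.

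The 133 genes with N-CoR and no H3K4me3 lay mostly far from any H3K4me3 summit. The distance from the N-CoR start to the nearest one had a median of 21180 bp (quartiles 5391 and 66075 bp) and ran from 1034 bp to 650748 bp, at RGS18, a regulator of G protein signaling of blood cells. In 18 of these genes (13.5%) it was within 2000 bp. N-CoR lay within 1 kb of the canonical start in 97 of the 133 genes, 72.9%, and of the 2139 genes with both in 1887, 88.2%.

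By peak number, the first of the genes with N-CoR and no H3K4me3 were DPEP1, a membrane dipeptidase, LST1, a leukocyte-specific transcript, BPI, the bactericidal permeability-increasing protein of neutrophil granules, SPATC1, CUEDC1, NIBAN3, IL1RN, the interleukin-1 receptor antagonist, BTBD19, DYNLT4 and ADGB. At DPEP1, SPATC1, CUEDC1, NIBAN3 and ADGB, N-CoR lay near other starts of the gene and not within 1 kb of the canonical one. SPATC1 shared its N-CoR summit with PARP10, a gene with N-CoR and H3K4me3 at different starts. BTBD19 and DYNLT4 are divergent neighbors and shared 1 N-CoR summit, at -669 and -503 bp. LST1 had N-CoR at -7 bp and its nearest H3K4me3 summit at -5292 bp. IL1RN had N-CoR at -3 bp and H3K4me3 at 29650 bp. The N-CoR windows of all 10 genes overlapped windows of AML1-ETO, AML1 and p300, against 75.6, 56.5 and 37.6% of all N-CoR windows at starts without H3K4me3.

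In the 153 genes with N-CoR and H3K4me3 at different starts, the H3K4me3 was mostly at the canonical start. It carried H3K4me3 in 131 of them, 85.6%, and N-CoR in 16, 10.5%. The lowest N-CoR peak numbers, by a rule added after the data had been seen, belonged to RNF166, GNAS, TFEB, ZDHHC3, RRP12, PARP10, ST3GAL4, CBFA2T3, TBL1X and TCF7L2. GNAS encodes the stimulatory G protein alpha subunit, and its N-CoR summit was 35 bp from an internal start. CBFA2T3 is a member of the ETO family, and its N-CoR summit lay 22 bp from a start with the nearest H3K4me3 summit at 36555 bp. TBL1X is a subunit of the N-CoR complex, with N-CoR at -161 bp and H3K4me3 at 1415 bp.

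The genes with H3K4me3 alone that had the lowest H3K4me3 peak numbers included the ribosomal protein gene RPL32, the mitochondrial ribosomal protein genes MRPL23 and MRPS17, and GLI4, NOL10, RNF4, NIPSNAP2, MAU2 and SUGP1. RPL32 had its H3K4me3 summit at -192 bp and MRPL23 at 260 bp from the start. MRPS17 and NIPSNAP2 shared 1 summit, as did MAU2, the cohesin loader subunit, and SUGP1. All of these named genes had a p300 summit within 1 kb of a start, against 51.1% of all genes with H3K4me3 alone.

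The other 3 lists differed between the classes. Of all genes, 21.6% had an AML1-ETO summit within 1 kb of a start, 17.2% an AML1 summit and 36.3% a p300 summit. AML1-ETO was found in 68.4% of the genes with N-CoR and H3K4me3, in 82.7% of those with N-CoR alone, in 88.9% of those with the 2 at different starts and in 24.0% of those with H3K4me3 alone. For AML1 these shares were 60.0, 66.2, 67.3 and 18.6%. For p300 they were 88.7, 43.6, 62.7 and 51.1%. The genes with neither had 2.50, 1.25 and 0.739% with AML1-ETO, AML1 and p300. These shares count every start of a gene, and the numbers of starts given above differed between the classes.

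**Figure D3:**
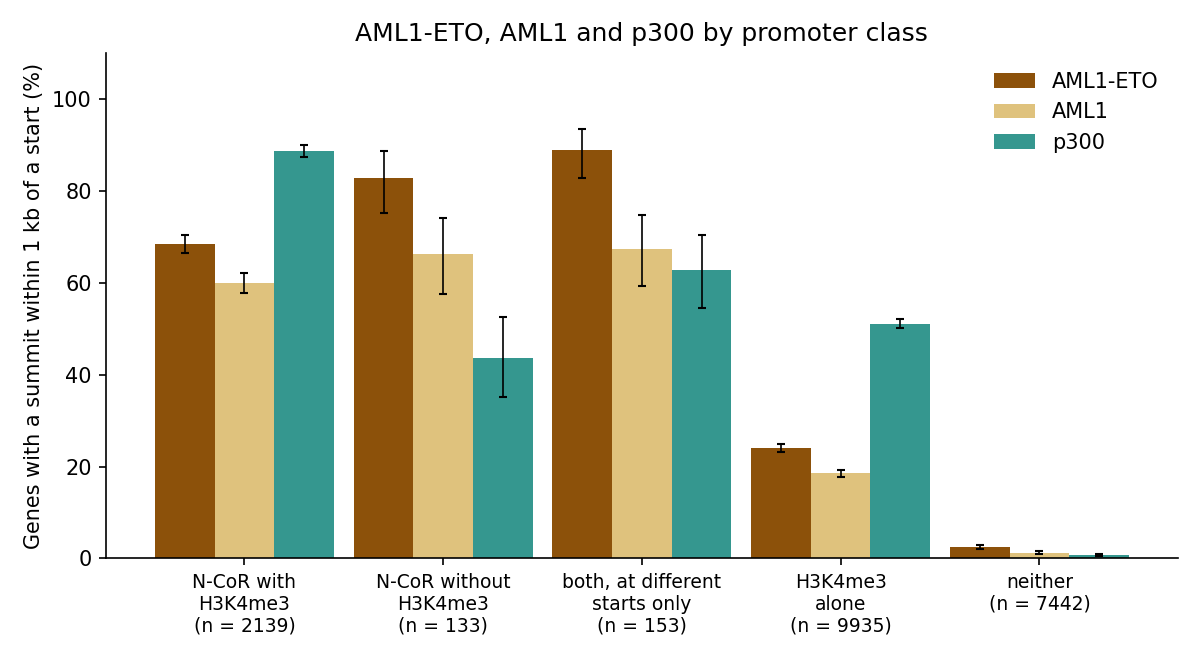
Percent of genes (y axis) with an AML1-ETO (brown), AML1 (tan) or p300 (green) summit within 1 kb of a start, in the 5 promoter classes, with exact 95% intervals over genes as error bars. p300 was found in 88.7% of genes with N-CoR and H3K4me3 and in 43.6% of those with N-CoR alone, while AML1-ETO was found in 68.4 and 82.7%.

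At the N-CoR windows themselves the same contrast was seen without the number of starts. Windows at starts with H3K4me3 overlapped AML1-ETO in 54.2% (52.0 to 56.5%), AML1 in 45.2% and p300 in 55.1% (52.9 to 57.3%). At starts without H3K4me3 these shares were 75.6% (71.2 to 79.6%), 56.5% and 37.6% (32.9 to 42.4%). The 7618 N-CoR windows away from starts overlapped AML1-ETO in 74.2%, AML1 in 57.4% and p300 in 32.8%. Neither AML1-ETO nor AML1 overlapped 34.7% (32.6 to 36.9%) of N-CoR windows at starts with H3K4me3, 20.6% (16.8 to 24.8%) at starts without it and 21.4% away from starts.

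The 2 kinds of N-CoR promoter differed in base composition. CpG dinucleotides are rare in most of the genome and frequent in CpG islands. In the 500 bp to either side of the start, the median ratio of observed to expected CpG was 0.785 in genes with N-CoR and H3K4me3, 0.786 in genes with H3K4me3 alone and 0.262 in genes with N-CoR alone. A promoter was called CpG-rich when this ratio was above 0.6 and more than 55% of the bases were G or C. This was so of 74.6% (72.7 to 76.4%), 82.6% (81.8 to 83.3%) and 9.77% (5.31 to 16.1%) of the 3 classes, and of 59.2% of all genes. Genes with N-CoR and H3K4me3 at different starts, measured at the N-CoR start, had 5.23% and genes with neither 25.6%.

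The start of a neighboring gene on the other strand lay upstream within 1 kb in 455 genes with N-CoR and H3K4me3, 21.3% (19.6 to 23.1%), and in 17.7% (17.0 to 18.5%) of the genes with H3K4me3 alone. Of the 133 genes with N-CoR alone, 1 had such a neighbor, 0.752% (0.0190 to 4.12%), and this interval also holds the 2.20% of genes with neither and the 1.96% of genes with the 2 at different starts.

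Motif letters in the 100 bp N-CoR windows were counted on both strands, as a description of sequence and not of binding. AGGAAG was found in 27.4% of windows at starts with H3K4me3, in 47.1% at starts without it and in 51.0% away from starts, against 13.1% of the 100 bp upstream of the start of all genes. TGTGGT was found in 6.66, 19.1 and 22.8% of the windows, against 3.70% upstream of all genes. GAGGAA, a PU.1 core that can overlap AGGAAG, was found in 18.8, 28.0 and 34.1%, against 10.3%. The AP-1 site TGANTCA was found in 2.75, 8.85 and 8.37%, against 1.80%.

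CCGGAA, the ETS core with a CpG, was found in 23.4% of N-CoR windows at starts with H3K4me3, in 9.33% at starts without it and in 6.48% away from starts, against 11.4% upstream of all genes. The GC box GGGCGG was found in 30.4, 11.0 and 5.11%, against 40.7%. The CRE palindrome TGACGTCA was in 1.98% (1.41 to 2.70%) of the windows at starts with H3K4me3. It was in 0 of 418 at starts without it (95% interval up to 0.879%) and in 0.171% away from starts, against 1.38% upstream of all genes. The CCAAT box was in 10.4, 8.37 and 8.16% of the windows, against 17.1% upstream of all genes. In the 100 bp upstream of genes with H3K4me3 alone, CCGGAA was found in 15.0%, the GC box in 51.2% and the CCAAT box in 15.9%. The CRE palindrome was found there in 1.59% (1.35 to 1.86%). Base composition differs between these sets, and its part in the motif shares was not tested.

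Gene lists are described by their counts, to be read beside the 12.2% of all genes with N-CoR, the 61.7% with H3K4me3 and the 0.672% with N-CoR alone. Of 10 myeloid markers, 7 had H3K4me3 and 5 had N-CoR. None of the 6 T cell markers and 4 liver markers had either. Of the 5 B cell markers, CD79A had N-CoR and PAX5 had H3K4me3, and of the 5 erythroid markers only EPOR, the erythropoietin receptor, had H3K4me3.

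**Figure D4:**
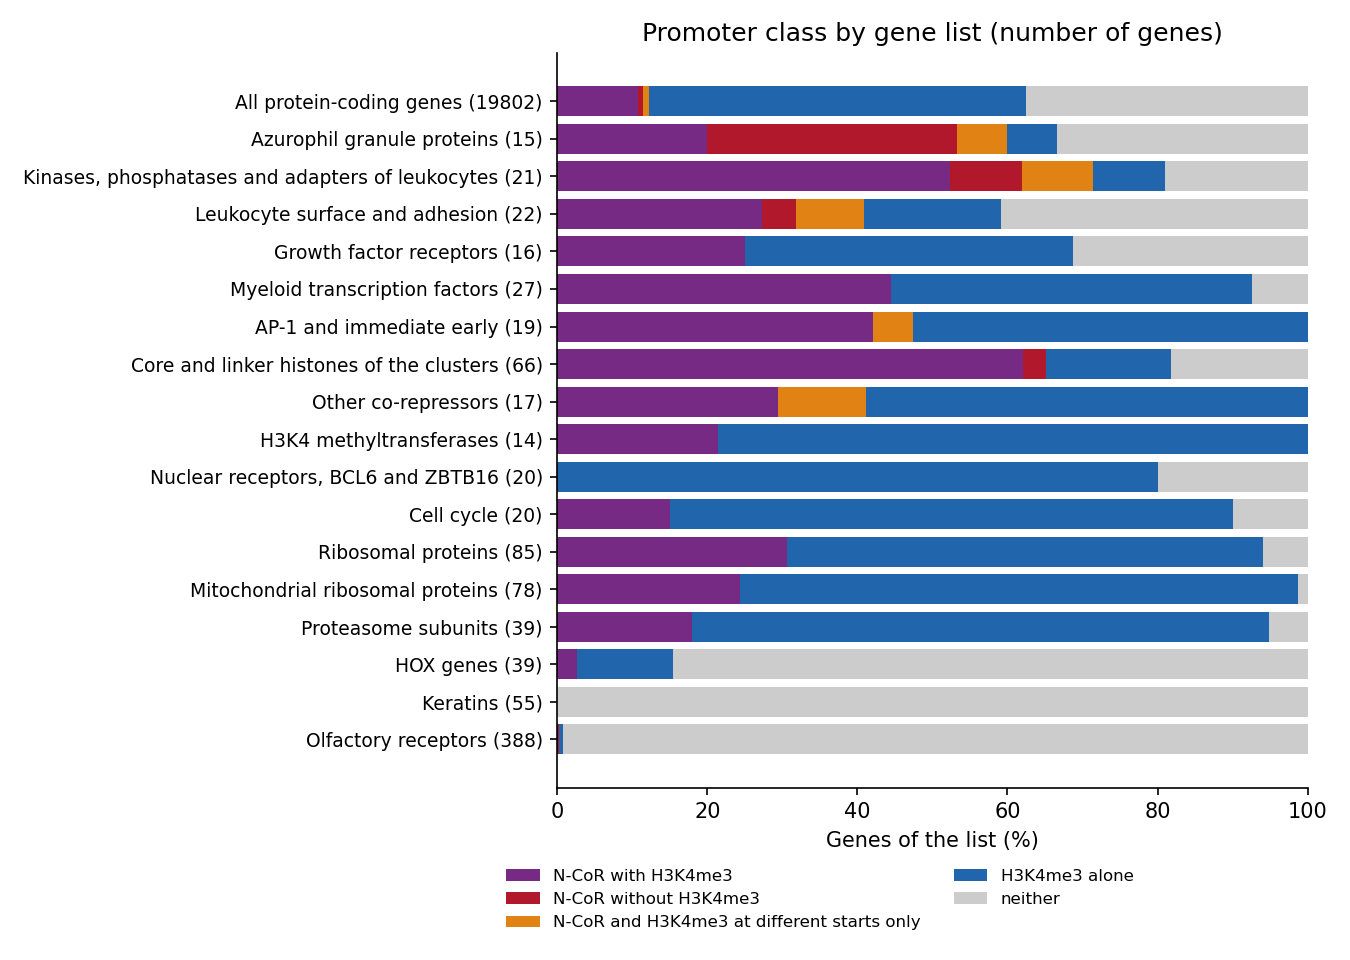
Percent of genes (x axis) in each of the 5 promoter classes, as stacked bars, for all protein-coding genes and 17 gene lists, with the number of genes in parentheses. N-CoR without H3K4me3 (red) is seen in 5 of 15 azurophil granule genes and in 0.672% of all genes, and the 55 keratin genes have neither.

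Genes of the azurophil granules, the primary granules of neutrophils, had N-CoR in 9 of 15 and H3K4me3 in 5 of 15. BPI, CTSG (cathepsin G), MPO (myeloperoxidase), RNASE2 and RNASE3 (ribonucleases of eosinophils and neutrophils) had N-CoR with no H3K4me3. At MPO the N-CoR summit was at -111 bp and the nearest H3K4me3 summit at 2101 bp, which is within the gene but outside the limit of 1 kb. At BPI they were at -62 and 130687 bp, and at CTSG at -167 and 133057 bp. At RNASE2 they were at 193 and 15893 bp.

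The other granule genes took other classes. AZU1 (azurocidin) had N-CoR at -109 bp and H3K4me3 at 187 bp, SERPINB1, an inhibitor of neutrophil proteases, had them at -88 and 435 bp, and CTSC, which activates the granule proteases, at 1 and 230 bp. PRTN3 (proteinase 3) had N-CoR at -29 bp of one start and H3K4me3 at another. ELANE, neutrophil elastase, which lies beside PRTN3, had H3K4me3 at -107 bp and no N-CoR. CST7, DEFA1, DEFA4, LYZ and SRGN had neither.

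Kinases, phosphatases and adapters of leukocyte receptor signaling had N-CoR in 15 of 21 genes, and in 11 of them with H3K4me3 at the same start. SYK, the kinase that binds phosphorylated immune receptors, had N-CoR at -18 bp and H3K4me3 at 288 bp. PTPN6, the phosphatase SHP-1, had them at -40 and 216 bp, and INPP5D, the lipid phosphatase SHIP1, at -48 and 284 bp. DOK2 and FCER1G, an adapter and the common Fc receptor gamma chain, had N-CoR alone, with H3K4me3 first at 1338 and 10965 bp. The Src family kinase FGR and the phospholipase PLCG2 had N-CoR and H3K4me3 at different starts.

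Leukocyte surface and adhesion genes had N-CoR in 9 of 22 and H3K4me3 in 12. CD33, a sialic acid receptor of myeloid cells, had N-CoR at -1 bp and H3K4me3 at 354 bp, and the integrin beta chain ITGB2 had them at -3 and 283 bp with 3 N-CoR summits in all. SELPLG, the P-selectin ligand, had N-CoR at -34 bp and its nearest H3K4me3 summit at 36020 bp. CD34, a surface protein of progenitor cells, and ITGAM, the alpha chain of Mac-1, had N-CoR and H3K4me3 at different starts.

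Growth factor and cytokine receptors had N-CoR in 4 of 16, at IFNGR2, IL6R, TGFBR2 and TNFRSF1A, each with H3K4me3 at the same start. IL6R had N-CoR at -40 bp and H3K4me3 at 385 bp, and TGFBR2 had them at -49 and 399 bp. The receptors CSF3R, CSF2RB and FLT3 had H3K4me3 alone.

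Transcription factors of the myeloid lineage had N-CoR in 12 of 27 and H3K4me3 in 25 of 27, and all 12 had the 2 at the same start. SPI1, which encodes PU.1, had N-CoR at -44 bp and H3K4me3 at 369 bp. GFI1, a transcriptional repressor required for neutrophil differentiation, had 3 N-CoR summits, the one nearest the start at -76 bp, with H3K4me3 at 283 bp. RUNX1, which encodes AML1, had N-CoR at 11 bp and H3K4me3 at 844 bp of the same start. CEBPE, LMO2, LYL1, MEF2C and TAL1 were others of this group, while CEBPA had H3K4me3 alone.

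Immediate early and AP-1 genes, which are induced within minutes of a signal, had H3K4me3 in all 19 and N-CoR in 9. JUN had N-CoR at -250 bp and H3K4me3 at 563 bp, JUNB had them at -117 and 358 bp, and ATF3 at -79 and 274 bp. IER2 had N-CoR and H3K4me3 at different starts. Of the 8 others with N-CoR, AML1-ETO was found at 3, against 68.4% of all genes with N-CoR and H3K4me3.

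Replication-dependent histone genes had N-CoR in 43 of 66, 65.2%, and H3K4me3 in 52. N-CoR and H3K4me3 shared a start in 41. Divergent H2A and H2B pairs share a promoter, and several of them shared an N-CoR summit, as did H2BC9 and H3C7. The 43 genes with N-CoR had 35 distinct N-CoR summits. The pair H2AC6 and H2BC4 shared 1 summit, at -129 and -117 bp. The median N-CoR offset over the 43 genes was -67 bp. H3C12 and H4C13 had N-CoR without H3K4me3, with the nearest H3K4me3 summit at -2003 and 1494 bp, outside the limit of 1 kb. Of the 41 genes with both, AML1-ETO was found at 8 and p300 at 25, against 68.4 and 88.7% of all genes with N-CoR and H3K4me3 and 21.6 and 36.3% of all genes. Genes within a histone family resemble each other, and reads that match several of them could be placed at more than 1 site. The part of this in the counts was not tested.

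Ribosomal protein genes had N-CoR in 26 of 85, mitochondrial ribosomal protein genes in 19 of 78 and proteasome subunit genes in 7 of 39. All of these shared the start with H3K4me3, as did 88.2% of all genes with N-CoR. H3K4me3 was found in 80, 77 and 37 genes of the 3 lists. p300 was found at all 26 ribosomal protein genes with N-CoR and at 53 of the 54 with H3K4me3 alone, and AML1-ETO at 15 and 14 of these. Over all genes of the 2 classes p300 was found in 88.7 and 51.1% and AML1-ETO in 68.4 and 24.0%. RPL5 had N-CoR at -16 bp and H3K4me3 at 592 bp.

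The genes of the co-repressor machinery all had H3K4me3. Of 7 subunits of the N-CoR complex, TBL1XR1 had N-CoR with H3K4me3 and TBL1X had the 2 at different starts, while the scaffold gene NCOR1 and the deacetylase gene HDAC3 had H3K4me3 alone. Of 17 other co-repressor genes 7 had N-CoR, among them HDAC1, with N-CoR at -139 bp and H3K4me3 at 249 bp, and KDM1A, the H3K4 demethylase LSD1, at -67 and 458 bp. Of 14 genes of the H3K4 methyltransferases and their partners, KMT2A (MLL), RBBP5 and HCFC1 had N-CoR with H3K4me3. None of 4 further H3K4 demethylase genes had N-CoR, and all had H3K4me3.

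DNA-bound partners of N-CoR, a list of nuclear receptors with the zinc finger repressors BCL6 and ZBTB16, had N-CoR at none of 20 genes, and 16 had H3K4me3. Cell cycle genes had N-CoR in 3 of 20, at CCND3, E2F3 and RB1, and H3K4me3 in 18. Of 13 genes of the BCL2 family, BCL2A1, an anti-apoptotic member, had N-CoR at -146 bp with no H3K4me3, and 12 had H3K4me3. HOX genes had N-CoR at HOXA5 only, of 39, and H3K4me3 at 6. Of 388 olfactory receptor genes 1, OR4D9, had N-CoR and 2 had H3K4me3, and the 55 keratin genes had neither.

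Position in the deposited N-CoR list went with the kind of promoter. The peaks are numbered in file order, and what this order stands for is not given. Of the 10 equal parts of the list, the first had 13.9% (11.8 to 16.2%) of its summits within 1 kb of a start, and the last 34.2% (31.3 to 37.2%). Of those at starts, 60.4% (51.8 to 68.6%) had H3K4me3 in the first part and 91.2% (87.7 to 94.0%) in the last. MPO, with peak number 495, stood in the first part, and RNASE3, with peak number 9816, in the last.

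**Figure D5:**
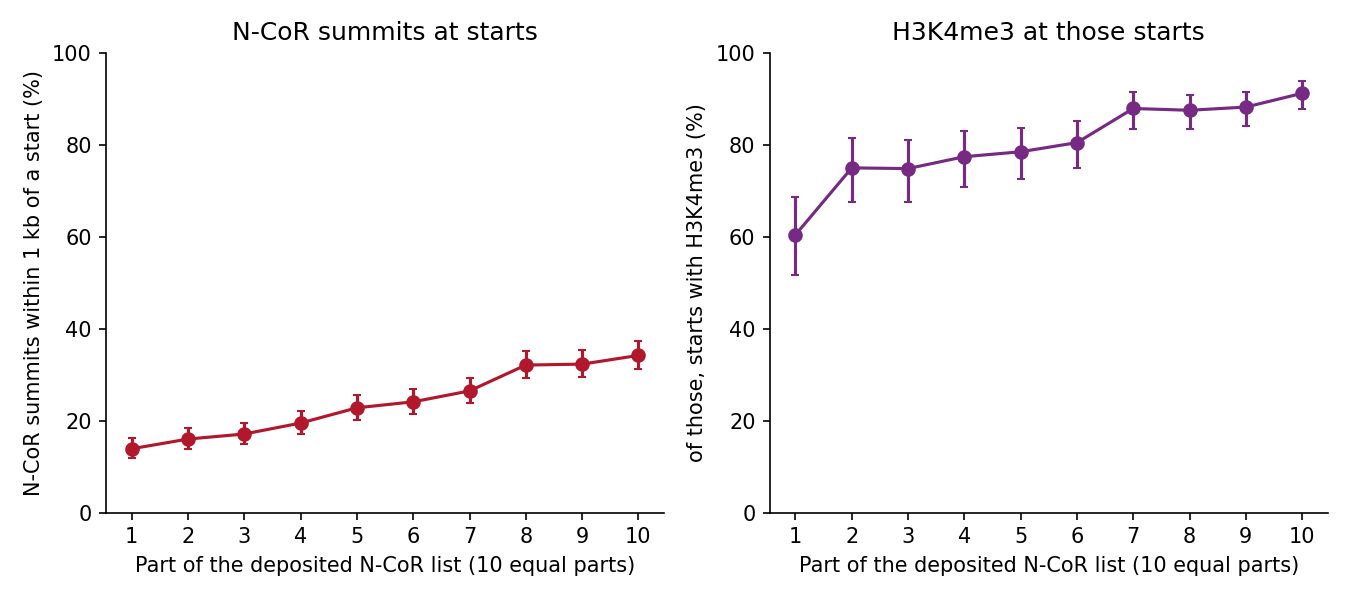
Left, percent of N-CoR summits within 1 kb of a protein-coding start (y axis) in 10 equal parts of the deposited N-CoR list (x axis). Right, percent of those summits whose start also had H3K4me3, with exact 95% intervals over summits as error bars in both. The left share runs from 13.9% in the first part to 34.2% in the last and the right share from 60.4 to 91.2%.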

How the data were processed

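ChIP-seq libraries from untreated Kasumi-1 cells were sequenced by the authors, 2 biological replicates for each antibody used here (N-CoR, H3K4me3, AML1, AML1-ETO and p300), while H3K27me3 and input were not used here, with CASAVA 1.6 named in the submitters' processing notes. The authors aligned reads to GRCh37 (hg19) with Bowtie 0.12.8, pooled the replicates and called peaks with MACS2 2.0.10.20131216 at p < 1e-20. The deposited lists hold coordinates and numbered names only, in windows of 100 bp, so the unit is a position, with no peak strength or read count in the lists. Names carry prefixes of other proteins, so each list was taken from its sample record. Peaks on the mitochondrial chromosome were left out (1 of 10004 for N-CoR, 1 of 19632 for H3K4me3).

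Starts were those of protein-coding transcripts of GENCODE release 44 lifted to GRCh37, and 19 copies on the Y chromosome of genes shared with X were left out. A summit is the window centre. A gene was described at the start with the closest N-CoR summit for its class, or closest H3K4me3 summit where N-CoR was absent, and the canonical start where neither was found. No sequence from chromosome 8 was printed. Windows of 2 lists overlapped when they shared at least 1 base. Intervals are exact Clopper-Pearson (SciPy 1.17.1, Python 3.11.15, pysam 0.24.0 for sequence). The classification and offsets were checked on made-up positions with known answers.

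Named genes were the 10 lowest peak numbers per class, the 5 genes with the most N-CoR summits, the 3 closest and 3 most distant pairs, and members of gene lists, of which some are not reported here. 1 listed surface gene had no match by symbol. The members and lists were chosen with earlier results of these data known. Alternatives were other distances, sets of starts, parts of each list, and the data without chromosomes 8 and 21, where the translocation joins AML1 and ETO. The lists have no scores, so a stricter threshold was replaced by the lower-numbered 50% of peaks.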

Additional observations from a re-analysis of the deposited data

How the results depend on the processing

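No paired analysis was possible because the replicates were pooled into 1 list per antibody. Of 100 values under 10 alternatives, 48 stayed within 1.5 times the main count or within the main interval and 52 moved. Without chromosomes 8 and 21 none of the 10 results moved. In every alternative N-CoR summits lay mostly upstream of the start and H3K4me3 summits mostly downstream.

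Below, the order is the share of N-CoR genes with H3K4me3, the share of H3K4me3 genes with N-CoR, the shares of N-CoR and of H3K4me3 summits upstream, the median distances of N-CoR and of H3K4me3 summits from the start, and the share of N-CoR summits at starts, with those that did not move left out. Within 500 bp of the start these were 78.2, 14.8, 77.2 and 28.6%, 76 and 228 bp, and 20.3%, and 249 genes had N-CoR without H3K4me3. Within 2 kb they were 19.4% of H3K4me3 genes with N-CoR, 68.2% of N-CoR summits upstream, 134 and 259 bp, and 28.4%. With the 5' end of each gene as its only start they were 15.7% of H3K4me3 genes with N-CoR, 62.6 and 26.5% upstream, 119 and 344 bp, and 17.0%, and 200 genes had N-CoR without H3K4me3. With 1 canonical start per gene, an alternative chosen after seeing the data, they were 93.6, 16.0, 79.5 and 26.9%, 112 and 320 bp, and 18.5%. With every annotated transcript they were 83.2% of N-CoR genes with H3K4me3, 69.8 and 31.9% upstream, 227 bp for H3K4me3, and 27%. With both summits allowed at any start of a gene the first 2 shares were 94.5 and 18.7%. Without genes that had another gene's start within 1 kb they were 86.1 and 16.4%, 32.0% of H3K4me3 summits upstream, 105 and 264 bp, and 19.3%.

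The lower-numbered 50% of the N-CoR list gave 707 genes with N-CoR and H3K4me3 and 59 with N-CoR without it, shares of 81.0 and 5.78%, 70.5% of N-CoR summits upstream, a median distance of 112 bp, and 17.9% of summits at starts. The lower-numbered 50% of the H3K4me3 list gave 440 genes with N-CoR without H3K4me3, shares of 75.1 and 19.8%, 19.0% of H3K4me3 summits upstream and a median distance of 241 bp. Fewer peaks enter these 2 alternatives by construction. The count of genes with N-CoR and no H3K4me3 depended most on such choices, from 59 to 440 against 133. Absence of a summit is not absence of the mark, and by the study's account the H3K4me3 libraries had fewer reads than the N-CoR libraries. The part of sequencing depth in the count of promoters with N-CoR and no H3K4me3 was not tested.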
